A study of Mus musculus with 9 samples.

Results

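The 6 wild-type (WT) libraries among the 9 of this series of sorted mouse fetal liver cells are described here, split by the level of Hlf, a transcription factor gene of blood stem cells. Members were chosen by the Hlf level in TPM, a length-scaled share of all transcripts in a library. The Hlf-high set held 3 libraries at 50 TPM or more, namely WT HSC replicates 1 and 2 and the library labelled WT KL replicate 1. The Hlf-low set held 3 libraries under 5 TPM, first the library labelled WT HSC replicate 3, then WT KL replicates 2 and 3. Each set thus contained 1 library whose label names the other sort gate, which is why the split was made on a measured value and not on the labels. Values per set are always given below in the order just listed.

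All 6 libraries came from fetal livers at embryonic day 14.5 of strain C57BL/6 with the genotype ROSA-Evi1, a transgene allele that these embryos carried without Tie2-Cre. The other 3 libraries, Evi1 HSC, held GFP+ cells of the same HSC gate from Tie2-Cre::ROSA-Evi1 embryos, whose Cre recombinase is driven in blood and vessel cells. The WT HSC gate was CD150+CD48-c-Kit+Sca-1+Lin-, a surface phenotype of haematopoietic stem cells (HSC). The WT KL gate was c-Kit+Sca-1-Lin-, a phenotype of committed progenitors. Each library was made from lysis buffer with 100 sorted cells, and no label says whether replicates came from separate embryos. The p-values thus cover no more than the spread among these libraries, which may be technical in part. By Xist and Ddx3y each set and each label held 2 libraries of female type and 1 of male type. The libraries of a label therefore did not all come from the same embryo. Whether those of like sex came from separate embryos is not known.

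In the fetal liver at this stage, stem cells expand while their progeny feed red cell, granulocyte, monocyte and platelet production. Stem cell identity rests on a set of transcription factors that includes HLF, MECOM (the locus of EVI1), MEIS1, the HOXA cluster and GATA2. Progenitors that leave this state lose these factors and take up GATA1 and KLF1 on the red cell path, or CEBPA and the granule proteases on the granulocyte path. The c-Kit+Sca-1-Lin- gate of a fetal liver holds progenitors of both paths.

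The other 4 marker genes followed the Hlf split and not the labels. Hlf itself, the value that chose the members, stood at 153, 189 and 164 TPM in the Hlf-high set and at 0.631, 1.83 and 2.19 TPM in the Hlf-low set. The libraries nearest the thresholds were therefore at 153 and 2.19 TPM, and the 3 Evi1 HSC libraries had 140 to 194 TPM. Mecom was at 161, 114 and 90.8 TPM against 0.0167, 0.0107 and 0.325 TPM. Esam, an adhesion molecule of endothelium and stem cells, was at 65.2, 79.1 and 92.2 TPM against 0.0885, 0.0181 and 0 TPM. Mpo encodes myeloperoxidase, an enzyme of granulocyte precursors, and was at 13.3, 8.24 and 13.6 TPM against 579, 812 and 279 TPM. Elane, neutrophil elastase, was at 0, 0.277 and 0.197 TPM against 75.7, 129 and 48.2 TPM. In GRCm38, Hlf lies on chromosome 11 from 90336536 to 90390895 and Mecom on chromosome 3 from 29951296 to 30548008, both on the minus strand. Esam lies on chromosome 9 from 37528078 to 37538319, Mpo on chromosome 11 from 87793581 to 87804413 and Elane on chromosome 10 from 79886247 to 79888215, all on the plus strand. No library of one set reached into the range of the other for any of these 4 genes, Hlf being fixed by the rule, and 512 of the 3424 exonic bases of Mpo are shared with Gm11505.

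Genes of the surface proteins used for sorting gave the same division. Ly6a, which encodes Sca-1, was at 13.2, 17.6 and 19.7 TPM in the Hlf-high set and at 0, 0 and 0.0354 TPM in the Hlf-low set. The library labelled WT KL replicate 1, from a gate negative for Sca-1, thus had the highest value of the 6. Slamf1 (CD150) was at 3.35, 4.17 and 11.3 TPM against 0.387, 0.0995 and 0.386 TPM. Cd48 ran the other way, at 2.06, 3.33 and 2.99 TPM against 16.7, 15.0 and 13.7 TPM. Kit, positive in both gates, was at 173, 215 and 176 TPM against 64.8, 87.7 and 64.9 TPM, a gap of just under 2-fold on the TPM + 1 scale. Where the mismatch of 2 libraries with their labels arose cannot be told from these values, and these libraries are called by their labels throughout.

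**Figure D1:**
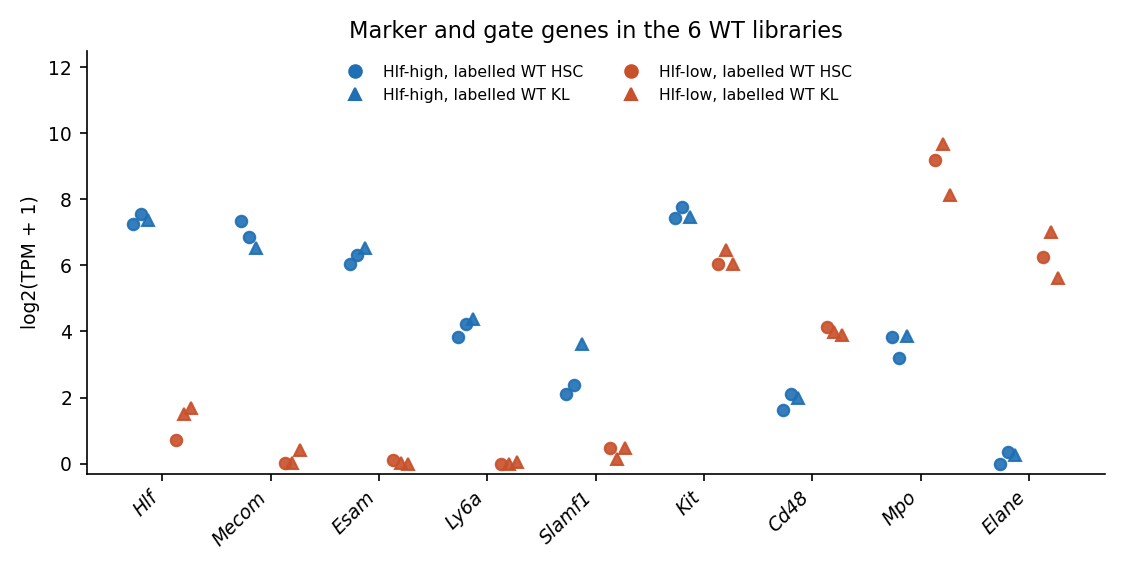
Level of 5 marker and 4 gate genes, as log2(TPM + 1), in each of the 6 WT libraries. Each symbol is 1 library, blue for the Hlf-high and orange for the Hlf-low set, circles for the label WT HSC and triangles for WT KL. Circles and triangles mix within each colour, and the colours do not overlap for any gene shown.

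The windows before the start sites of Hlf and Elane are shown because these genes mark the ends of the split. Each holds 185 bases on the gene's strand, 5′ to 3′, from RefSeq on GRCm38.p6, with searched motifs in capitals. For Hlf the window is chr11:90390918-90391102 (minus strand), next to the RefSeq start. For Elane it is chr10:79886062-79886246 (plus strand), which leaves out 65 bases next to the RefSeq start because the GENCODE M21 gene begins there.
Hlf: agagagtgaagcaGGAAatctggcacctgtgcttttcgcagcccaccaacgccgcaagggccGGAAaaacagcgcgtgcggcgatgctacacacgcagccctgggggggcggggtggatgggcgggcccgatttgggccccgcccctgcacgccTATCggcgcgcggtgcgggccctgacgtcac
Elane: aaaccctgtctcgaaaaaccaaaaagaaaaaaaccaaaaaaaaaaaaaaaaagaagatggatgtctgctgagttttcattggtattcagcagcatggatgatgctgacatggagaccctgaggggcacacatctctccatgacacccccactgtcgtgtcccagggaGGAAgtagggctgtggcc

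Both strands were searched for GATA (core of GATA factor sites), GGAA (core of ETS factor sites), TTNNGNAA (a C/EBP-type site) and TTANNTAA (a PAR bZIP-type site). The Hlf window held 2 GGAA matches and 1 GATA match, the latter on the opposite strand and so written TATC. The Elane window held 1 GGAA match and no GATA match. Neither window held TTNNGNAA or TTANNTAA. Among 27025 promoter windows of the same length, 87.0% held GGAA, 43.1% GATA, 28.0% TTNNGNAA and 3.88% TTANNTAA. A match is a string of letters and not a measured binding site.

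Across the transcriptome the sets stood far apart and the labels did not. A gene was called separated when every library of one set was at least 2-fold above every library of the other on the TPM + 1 scale. Because the split was chosen on values of these same libraries, separation is a description and no test was made on it. Of the 18268 genes that reached 1 TPM in 3 or more of the 6 libraries, 2537 (13.9%) were separated higher and 395 (2.16%) separated lower in the Hlf-high set. The counts of the gene lists below are to be read against these shares. List sizes include members under the filter, whereas the shares count only genes past it. Over the 34203 genes above 0 TPM in any of the 6 libraries, the shares were 7.42% and 1.15%. Of the 2537, 1342 were under 1 TPM in all 3 Hlf-low libraries, and 1073 had a median of 10 TPM or more in the Hlf-high set. Without the library labelled WT HSC replicate 3 the counts were 2739 and 482, and without the one labelled WT KL replicate 1 they were 2716 and 484. Leaving out a library can only relax the rule, so these counts could not fall. Of the 395, 71 were under 1 TPM in all 3 Hlf-high libraries, and 315 had a median of 10 TPM or more in the Hlf-low set. A separated gene has to reach 1 TPM in 3 libraries, so genes below that filter could not be counted as separated. The 1342 and 71 genes under 1 TPM in the other set passed it through 1 set alone, so the filter fixed their direction. Such members occur in many of the lists below.

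The number of genes expressed also differed. Between 18446 and 18806 genes reached 1 TPM in the Hlf-high libraries and between 15422 and 15819 in the Hlf-low libraries, while 520 to 554 and 657 to 759 genes reached 100 TPM. The 10 most abundant genes took 24.5 to 25.1% of the listed TPM in the Hlf-high and 26.8 to 27.6% in the Hlf-low libraries. TPM keeps no read depth, so whether depth moved with the sets is unknown. The median difference over all 18268 genes was 0.26 on the log2(TPM + 1) scale towards the Hlf-high set, and the differences of single genes below are to be read against it. It was 0.06 with no filter and 0.10 with a filter of 5 TPM. In sorted bulk samples, fewer cells of a type and less RNA per cell cannot be told apart.

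Pearson's r across genes was 0.954 to 0.972 between libraries of one set with different labels and 0.804 to 0.832 between libraries of different sets with the same label. Genes are not independent replicates, so these carry no p. On the first principal component, with 80.1% of the variance, the Hlf-high libraries lay between 69.9 and 81.5 and the Hlf-low libraries between −78.7 and −74.8.

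The labels themselves were tested. The limma fit of WT HSC against WT KL as labelled, 3 against 3, asks which genes follow the labels. Each group holds 1 library of the other Hlf set, so the difference between the sets enters as spread within the groups. In simulated data this fit recovered 0 of 100 genes changed 2-fold and 22 of 100 changed 4-fold. It called 1 gene (0.00547% of those tested) at an adjusted p under 0.05, Gm47313, and 199 genes had an unadjusted p under 0.05, or 1.09%. With the Hlf set held as a term, the label called 2 genes (0.0109%), and 748 genes, or 4.09%, had an unadjusted p under 0.05. Of the 569 members of all gene lists below, 418 were tested in this fit, 0 were called and 15 had an unadjusted p under 0.05. The smallest adjusted p among them was 0.769. Leaving out the 2 libraries that went against their labels gave 6910 calls (37.8%), 4896 higher and 2014 lower in WT HSC. As those libraries were left out on measured values, that count is given as a description of the 4 that remain.

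The called genes were not stem cell or progenitor markers. Gm47313 was at 24.3, 17.8 and 0 TPM in the Hlf-high and at 25.5, 0 and 0 TPM in the Hlf-low set, so that all 3 libraries labelled WT HSC had it and all 3 labelled WT KL were listed at 0. With the Hlf set as a term its difference was 4.59 (SE 0.19, limma adjusted p = 0.0103), and the 3 Evi1 HSC libraries held 17.1, 19.2 and 19.4 TPM. It is annotated as a miRNA gene on chromosome 3 from 96245826 to 96245963, minus strand, and all 138 of its exonic bases are shared with Gm20633, Gm20634 and the histone gene Hist2h2aa1, so its value depends on how shared reads were assigned. Ndfip1, an adaptor of NEDD4-family ubiquitin ligases, was at 4.53, 5.19 and 41.0 TPM against 2.26, 26.0 and 23.2 TPM. It was lower in 3 of 3 libraries labelled WT HSC, by −2.91 (SE 0.14, limma adjusted p = 0.0116). In the Evi1 HSC libraries, from the HSC gate with GFP, it ranged from 5.96 to 31.4 TPM. Leaving out 1 library at a time took the adjusted p of Gm47313 to between 0.0438 and 0.167 and that of Ndfip1 to between 0.101 and 0.190 in the fit with the Hlf set.

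Sizes of difference are given for the sets and for the labels. The difference of set medians was at least 1 on the log2 scale in either direction for 5455 genes (29.9%) and at least 2 for 1567 genes (8.58%). The label coefficient as labelled was at least 1 for 746 genes (4.08%) and at least 2 for 26 genes. With the Hlf set as a term, which takes up the part shared with the sets, these were 221 genes (1.21%) and 12 genes. The median absolute value was 0.60 for the sets, 0.23 for the labels and 0.13 for the labels with the term. As labelled, the median coefficient was 1.16 for the stem cell transcription factors and −2.27 for the later granulocyte genes of the lists below, and with the term it was 0.08 and −0.30.

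**Figure D2:**
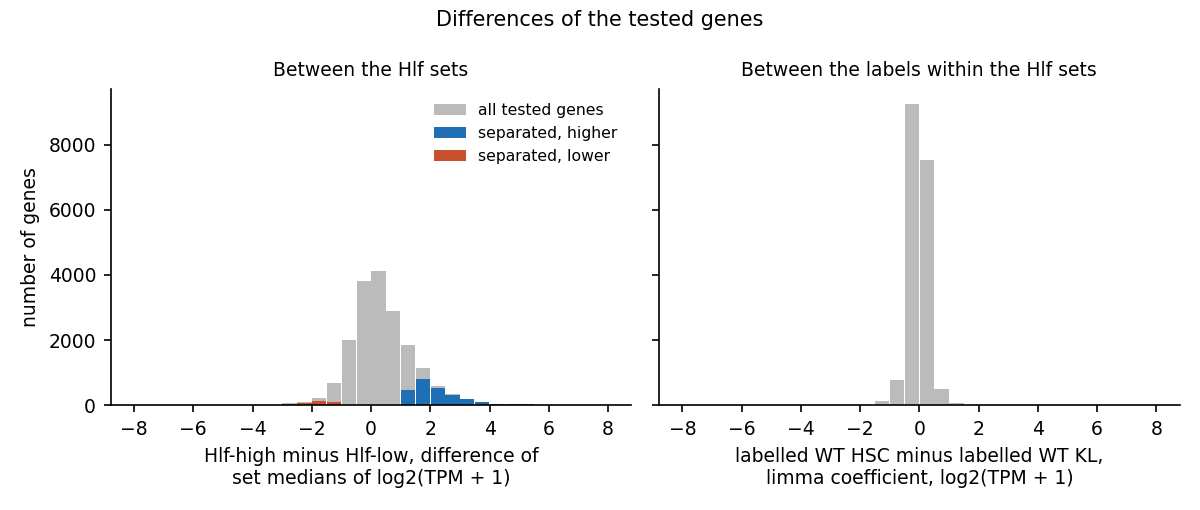
Number of genes (vertical axis) by size of difference in log2(TPM + 1) for the 18268 tested genes. The left panel shows the difference of Hlf set medians, with separated genes in blue (2537 higher) and orange (395 lower), and the right panel the limma coefficient of the label with the Hlf set as a term. The left distribution is wide and skewed to the right, and the right one is narrow around 0.

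The genes with the largest gap between the sets, after the markers named above, are listed by the size of that gap. In the Hlf-high direction Gcnt2, a glycosyltransferase that branches poly-N-acetyllactosamine chains, led with 114, 126 and 114 TPM against 0.320, 0.214 and 0.333 TPM. Gimap6 and Gimap8, GTPases of immune cells, Mycn, Tbxas1 (thromboxane A synthase), Serpina3g (a serine protease inhibitor), Igf2, the cation channel gene Trpc6 and Pglyrp2 completed the first 12. Trpc6 was at 39.7, 44.4 and 43.3 TPM against 0.00860, 0.0140 and 0.0720 TPM. In the other direction S100a8, a calcium-binding alarmin of neutrophils, led with 0 TPM in all 3 Hlf-high libraries against 153, 492 and 110 TPM. Ctsg, Stfa1, S100a9, Ms4a3, Cstdc5, Rab44, Hp and Fcgr3, all known from myeloid cells, and the red cell adducin gene Add2 completed the first 12 with Mpo and Elane. Rab44, a Rab GTPase, was at 0.0289, 0.0269 and 0.0318 TPM against 17.0, 24.4 and 12.7 TPM.

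Of 20 stem cell transcription factors, 15 were separated higher and 2 lower in the Hlf-high set. The median difference over the 19 that passed the filter was 2.84, against 0.26 over all genes. Hlf, which defined the sets, is in this list, and without it the counts were 14 and 2 of 19 and the median 2.56. Meis1, a HOX cofactor, was at 54.3, 64.2 and 63.6 TPM against 1.86, 1.51 and 1.61 TPM. The ETS factor Erg was at 67.3, 65.6 and 62.9 TPM against 2.15, 2.94 and 1.18 TPM. Prdm16, a relative of Mecom, was at 32.5, 25.8 and 24.7 TPM against 0.451, 0.866 and 0.469 TPM. Nkx2-3, a homeobox gene, was at 18.1, 15.6 and 15.0 TPM and was listed at 0 in all 3 Hlf-low libraries.

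Not every factor of the stem cell list was lower in the Hlf-low set. Tal1, which works in stem cells and red cell precursors alike, was at 30.5, 30.6 and 29.3 TPM against 37.7, 39.9 and 39.1 TPM. Lyl1 was at 37.0, 35.1 and 40.8 TPM against 34.7, 29.8 and 24.6 TPM. Lmo2, their partner, was separated but remained at 155, 201 and 190 TPM in the Hlf-low set against 419, 443 and 417 TPM. The members that opposed the list were Gfi1b and Zbtb16. Zbtb16, a zinc finger repressor, was at 0.432, 0.301 and 0.237 TPM in the Hlf-high set against 4.06, 4.77 and 2.65 TPM.

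Several related pairs of factors, chosen after their values were seen, were split between the sets. Gata2 was at 40.2, 42.7 and 35.7 TPM in the Hlf-high and 7.56, 6.53 and 7.51 TPM in the Hlf-low set. Gata1, which succeeds it in red cell development, was at 17.3, 18.2 and 8.92 TPM against 100, 107 and 118 TPM. The sets thus held the opposite order of these 2 factors, and the ratio of set medians was 5.35 for Gata2 (high over low) and 6.21 for Gata1 (low over high). Mycn was at 86.9, 87.6 and 84.8 TPM against 0.385, 0.0475 and 0.497 TPM, while Myc was at 33.2, 17.6 and 18.997 TPM against 86.2, 99.9 and 93.9 TPM. Gfi1, a repressor of stem and granulocytic cells, was at 48.1, 49.8 and 46.6 TPM against 4.59, 10.1 and 3.17 TPM. Its paralog Gfi1b, of the red cell and platelet lineages, was at 21.2, 21.4 and 17.3 TPM against 70.2, 72.9 and 84.1 TPM. In none of these 6 genes did the sets overlap.

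**Figure D3:**
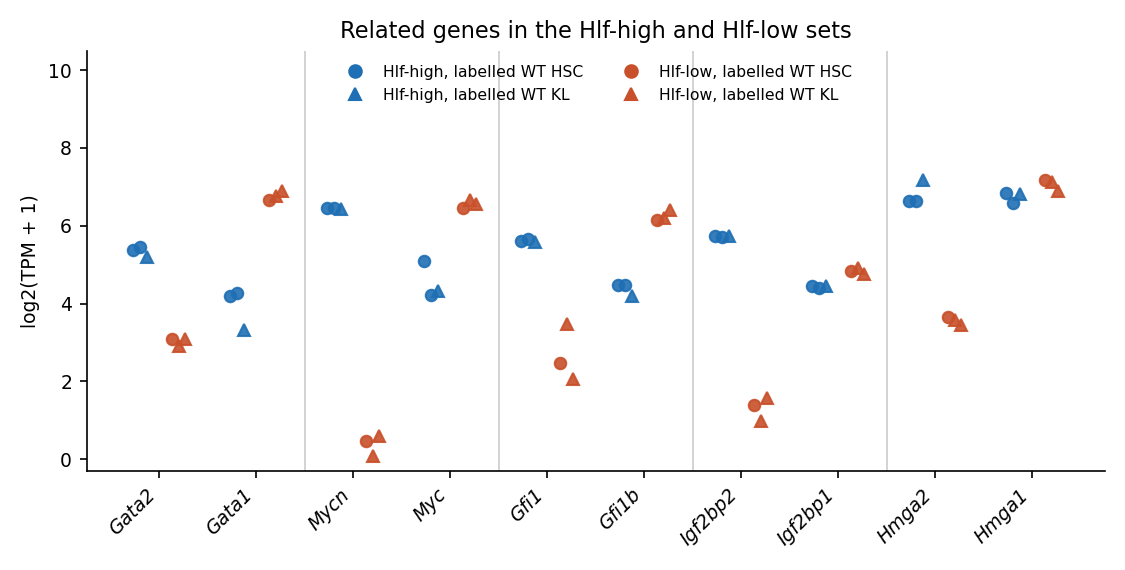
Level of 5 pairs of related genes, as log2(TPM + 1), in each of the 6 WT libraries, with symbols as in the plot of marker genes. Gata2, Mycn, Gfi1, Igf2bp2 and Hmga2 lie higher in the Hlf-high set, Gata1, Myc and Gfi1b lie higher in the Hlf-low set, and Igf2bp1 and Hmga1 are within 2-fold.

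Surface and signalling genes of stem cells followed the split, with 17 of 18 separated higher, a median difference of 4.05, and Thy1 under the filter. Procr, the endothelial protein C receptor and a stem cell marker, was at 23.6, 30.3 and 24.8 TPM against 0, 0 and 0.137 TPM. Fgd5, a guanine nucleotide exchange factor used as a stem cell reporter, was at 71.2, 72.0 and 74.0 TPM against 1.21, 0.874 and 1.18 TPM. Mmrn1, a multimerin, was at 63.5, 54.1 and 62.8 TPM against 0.774, 0.553 and 0.701 TPM. Angpt1, the ligand of the TIE2 receptor, was at 60.5, 104 and 67.9 TPM against 1.25, 1.57 and 1.72 TPM, and Tek, which encodes TIE2, was at 37.7, 50.4 and 45.6 TPM against 0.636, 0.395 and 0.931 TPM.

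Flt3, the receptor of multipotent and lymphoid-primed progenitors, was low but separated, at 8.06, 8.005 and 8.07 TPM against 0.610, 0.693 and 0.698 TPM. Across cytokine receptors 6 of 17 were separated higher and 2 lower, against 13.9% and 2.16% of all tested genes. The median difference over the 15 past the filter was 1.44. Il6st, the shared signal subunit of the IL-6 family, was at 10.03, 26.4 and 22.3 TPM against 1.15, 1.13 and 1.42 TPM. Tnfrsf1a, a TNF receptor, was at 36.5, 35.6 and 38.8 TPM against 6.07, 9.50 and 4.02 TPM. Those lower were Epor, the erythropoietin receptor, at 16.9, 14.2 and 12.2 TPM against 57.1, 64.6 and 62.0 TPM, and Il1rl1, the IL-33 receptor, at 0.526, 0.407 and 0.351 TPM against 4.45, 5.41 and 8.20 TPM. Csf3r, the receptor of the granulocyte growth factor G-CSF, was separated higher, at 35.1, 37.0 and 39.2 TPM against 10.7, 13.7 and 5.16 TPM.

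Endothelial genes were separated higher in 13 of 24 cases, with 8 under the filter and a median difference of 3.24 over the other 16. Some of these genes, such as Esam, Tek, Robo4 and Eng, stand in the stem cell list as well. Adgrl4, an adhesion receptor of endothelium, was at 186, 202 and 190 TPM against 6.00, 0.689 and 0.359 TPM, and Tie1 was at 59.1, 79.6 and 85.4 TPM against 1.07, 1.81 and 0.742 TPM. Endothelial genes differed in level and evenness within the Hlf-high set. Emcn was at 16.9, 26.8 and 21.9 TPM there, Pecam1 at 29.995, 40.9 and 29.2 TPM and Egfl7 at 346, 139 and 156 TPM. The 4 genes that follow were lower and less even than these. Cdh5 (VE-cadherin) was at 4.76, 14.8 and 7.12 TPM, Kdr (a VEGF receptor) at 1.31, 9.24 and 3.28 TPM, Stab2 at 0.175, 8.26 and 0.580 TPM and Lyve1 at 0.393, 8.58 and 3.31 TPM. WT HSC replicate 2 was highest in these 4 genes, and in 9 of the 13 separated ones. The summed level of the list was 797 to 894 TPM in the Hlf-high and 53.3 to 66.1 TPM in the Hlf-low set, and the part of endothelial cells in it was not tested.

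All 8 Gimap genes were separated higher, with a median difference of 3.86. Gimap6 was at 193, 189 and 155 TPM against 1.08, 1.13 and 1.10 TPM, and Gimap1 was at 63.2, 69.5 and 78.3 TPM against 2.20, 1.09 and 1.55 TPM. Gimap9 had the smallest difference, 1.83, at 19.6, 19.9 and 20.99 TPM against 5.55, 4.88 and 3.95 TPM. The family is clustered on chromosome 6, and reads shared among its copies could blur single values. Of 16 genes of lymphoid commitment, 12 were under the filter. Among the 4 past it, Satb1 and Cd79b were separated higher, against 13.9% of all tested genes. Ighm, the IgM heavy chain, leaned the other way with overlap, at 0.221, 0.883 and 3.14 TPM against 8.94, 5.64 and 0.883 TPM. Igll1, of the pre-B cell receptor, was under the filter at 0.135, 0 and 0 TPM against 8.72, 1.13 and 0 TPM. Bcl11a was at 114, 125 and 117 TPM against 83.1, 99.8 and 82.2 TPM.

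Hox genes past the filter belonged to 2 of the 4 clusters and were near 0 in the Hlf-low set. Of 39 genes, 12 were separated higher, 8 of 11 in the Hoxa and 4 of 10 in the Hoxb cluster, and those 12 were also the ones past the filter. All 12 were under 1 TPM in every Hlf-low library and passed through the Hlf-high libraries alone, so the filter largely set that match. Hoxa9 was at 45.7, 49.3 and 48.8 TPM against 0.106, 0.659 and 0.137 TPM, and Hoxa3 was at 19.1, 24.2 and 26.6 TPM against 0.0336, 0.00399 and 0.0579 TPM. Hoxb4 was at 4.73, 6.93 and 6.71 TPM against 0.0424, 0.0693 and 0.0361 TPM. In the Hlf-high set no gene of the Hoxc cluster exceeded 0.660 TPM and none of the Hoxd cluster exceeded 0.438 TPM, and in the Hlf-low set both clusters were listed at 0 throughout. The summed Hox level was 138 to 148.8 TPM against 0.630 to 1.02 TPM.

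Genes of the fetal programme were divided. Igf2bp2, an RNA-binding protein, was at 52.4, 51.7 and 52.7 TPM against 1.61, 0.968 and 1.96 TPM, and Hmga2, a chromatin protein, was at 98.2, 98.7 and 145 TPM against 11.7, 10.96 and 9.86 TPM. Their paralogs were not separated, with Igf2bp1 at 21.01, 20.1 and 21.04 TPM against 27.8, 29.0 and 26.2 TPM and Hmga1 at 114, 94.7 and 113 TPM against 143, 140 and 117 TPM. Lin28b, the RNA-binding regulator upstream of this programme, was at 17.9, 6.05 and 9.33 TPM against 8.89, 14.1 and 8.80 TPM, so that its ranges overlapped. Of the 8 genes, 2 were separated higher and 0 lower, with a median difference of 0.15.

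Of 12 genes of the imprinted growth network, 8 were separated higher and 0 lower, with a median difference of 2.40. H19, a maternally expressed long RNA, was at 291, 394 and 323 TPM against 9.86, 7.78 and 6.02 TPM, and Igf2, its neighbour, was at 46.1, 56.7 and 54.2 TPM against 0.0906, 0.0502 and 0.0610 TPM. Igf2 shares 3694 of its 5723 exonic bases with Gm49394 and Igf2os. Rian, from the Dlk1 domain, was at 49.4, 38.3 and 31.2 TPM against 0.0664, 0.0761 and 0.00441 TPM, and Dlk1 was at 27.5, 14.9 and 19.6 TPM against 2.84, 1.72 and 1.92 TPM. Grb10 and Igf2r were expressed in both sets, at 69.3 to 93.6 TPM against 71.8 to 75.5 TPM and at 31.9 to 44.2 TPM against 16.7 to 22.4 TPM. Mest was high in WT HSC replicate 2 alone, at 1.13, 58.4 and 3.63 TPM against 0.207, 0.182 and 0.0912 TPM.

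The cell cycle inhibitor Cdkn1c, also imprinted, was at 21.7, 27.8 and 28.7 TPM in the Hlf-high set against 0.160, 1.44 and 1.29 TPM. Among 15 G1 cyclins, kinases and inhibitors it was separated higher along with Cdkn2d and the D-type cyclin gene Ccnd1, the latter at 21.6, 17.1 and 24.9 TPM against 5.4996, 2.13 and 2.61 TPM. Ccne1, the E-type cyclin of S phase entry, was separated lower, at 12.3, 12.2 and 16.0 TPM against 85.8, 62.9 and 64.2 TPM. Genes of replication and mitosis were expressed in every library. Of 20 S phase genes, Rrm2, a subunit of ribonucleotide reductase, was the 1 separated, at 57.1, 58.3 and 60.4 TPM against 197, 198 and 191 TPM. In 17 of the 20 every Hlf-high library was nonetheless below every Hlf-low library, with a median difference of −0.69. Of 20 G2 and M phase genes 0 were separated and 14 showed such a full ordering, with a median difference of −0.51. Mki67, the Ki-67 gene, was at 108, 82.0 and 99.4 TPM against 148.8, 170 and 157 TPM. Over all genes, 21.1% were ordered in this way without overlap, by any amount.

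Genes of interferon response and antigen presentation were higher in the Hlf-high set as a group. Of 23 interferon response genes, 15 were separated higher and 0 lower. All 20 past the filter were ordered without overlap, as were 41.5% of all tested genes in that direction. The median difference was 2.13. Isg15, Ifit1, Oasl2, Mx2, Usp18, Xaf1, Rsad2 and Gbp2 were under 1 TPM in every Hlf-low library, so the filter fixed their order. Ifitm1, a membrane restriction factor, was at 136, 132 and 135 TPM against 9.50, 2.05 and 0.692 TPM, and Ifitm3 was at 241, 246 and 269 TPM against 16.3, 9.19 and 15.5 TPM. Oasl2, an oligoadenylate synthetase-like gene, was at 19.9, 28.3 and 25.6 TPM against 0.0832, 0.0279 and 0.0291 TPM. Irf1, a transcription factor of the response, was at 28.6, 29.2 and 38.7 TPM against 1.95, 2.17 and 0.968 TPM. Of 15 genes of MHC class I and its peptide supply, 9 were separated higher, with a median difference of 1.99. B2m encodes the subunit common to class I molecules and was at 340, 358 and 518 TPM against 100, 112 and 91.4 TPM, and Tap1, a peptide transporter, was at 16.1, 20.8 and 21.2 TPM against 2.91, 1.37 and 1.58 TPM. In 8 of the 9 the library labelled WT KL replicate 1 was the highest of its set. Class I heavy chain genes are near-identical copies, so their single values are uncertain.

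Immediate early genes, which respond within minutes to handling and signals, were separated higher in 7 of 17 cases, against 13.9% of all tested genes. The median difference over the 13 past the filter was 1.61. Jun was at 29.6, 42.1 and 28.4 TPM against 2.72, 5.82 and 4.62 TPM, and Dusp1 was at 30.6, 40.5 and 22.3 TPM against 2.44, 5.84 and 5.43 TPM. Fos was at 15.6, 35.4 and 8.04 TPM against 1.39, 5.29 and 5.19 TPM, a gap of less than 2-fold. WT HSC replicate 2 was highest in all 7 separated genes. Whether sorting or handling had a part in these levels was not tested.

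In the TGF-beta and BMP pathway 9 of 18 genes were separated higher and 0 lower, against 13.9% and 2.16% of all tested genes. The median difference over the 15 past the filter was 1.96. Among the receptors, Tgfbr2 was at 20.2, 20.1 and 18.97 TPM against 1.87, 1.44 and 1.52 TPM and Tgfbr1 at 30.01, 7.23 and 35.3 TPM against 2.32, 2.77 and 2.61 TPM. Smad3, a signal transducer, was at 45.5, 52.6 and 54.6 TPM against 6.66, 6.78 and 7.12 TPM, and the inhibitor Smad6 was at 4.17, 4.72 and 5.79 TPM against 0.229, 0.195 and 0.137 TPM. The ligand Tgfb1 was not separated, at 47.3, 47.1 and 61.0 TPM against 66.0, 64.2 and 52.3 TPM. In the Notch pathway 4 of 14 genes were separated higher, against 13.9% of all tested genes. The median difference over the 7 past the filter was 1.48. Those separated were the receptors Notch1 and Notch3 and the ligands Dll4 and Jag2, with Notch1 at 17.9, 18.3 and 16.5 TPM against 3.98, 2.87 and 4.37 TPM. Notch2 was at 32.4, 33.6 and 33.9 TPM against 27.9, 29.5 and 31.2 TPM.

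On the granulocyte side, 5 of 7 primary granule genes and 5 of 19 later granulocyte genes were separated lower in the Hlf-high set and 0 higher. Ctsg, cathepsin G, was listed at 0 in all 3 Hlf-high libraries against 153, 180 and 91.0 TPM. Ms4a3, a gene of granulocyte-monocyte progenitors, was at 0.303, 0.642 and 0.313 TPM against 43.8, 78.6 and 27.2 TPM. Prtn3, proteinase 3, was not separated, at 25.9, 15.7 and 24.4 TPM against 75.7, 103 and 25.9 TPM, although it lies in the same protease cluster as Elane. S100a9 was listed at 0 in the Hlf-high set and stood at 56.8, 266 and 25.6 TPM in the Hlf-low set. The stefin gene Stfa1 was likewise at 0 against 30.6, 110 and 30.8 TPM.

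Of the later granulocyte list 14 genes were under the filter, among them the secondary granule genes Ltf, Camp and Ngp. Those past it were listed at 0 in every Hlf-high library, so the filter fixed their direction. Ly6g, Chil3, Retnlg and Stfa2 were listed at 0 in all 6 libraries. Cstdc4 was high in 1 library alone, with 56.7 TPM in WT KL replicate 2 and 0.175 and 3.77 TPM in the other Hlf-low libraries. WT KL replicate 2 held the highest level of all 10 separated granulocyte genes and WT KL replicate 3 the lowest of 8. The summed level of the later genes was 260, 1033 and 189 TPM in the Hlf-low set, against 2.13 to 2.41 TPM in the Hlf-high set.

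Of 10 transcription factors of the myeloid path, 1 was separated higher and 2 lower, against 13.9% and 2.16% of all tested genes. The median difference over the 8 past the filter was 0.37, against 0.26 over all genes. Cebpa, the factor that directs granulocyte commitment, was at 0.277, 0.254 and 0.476 TPM against 6.74, 7.14 and 2.95 TPM. Spi1, which encodes PU.1, was higher in the Hlf-high set, at 40.4, 27.0 and 35.8 TPM against 11.3, 14.9 and 6.29 TPM. Its set medians differed by 1.58, but it was not separated, as its nearest libraries lay less than 2-fold apart. Cebpb and Cebpd were under 5 TPM in every library. Among 13 monocyte and dendritic genes F13a1 and Ly6c2 were separated lower, and Lyz2, lysozyme, opposed them at 116, 150 and 143 TPM against 30.04, 39.4 and 27.0 TPM. F13a1, a coagulation factor subunit, was at 0, 0.0356 and 0.0261 TPM against 26.0, 21.6 and 4.49 TPM. Itgam (CD11b or Mac-1), a lineage antigen that fetal liver stem cells are known to carry, was at 12.9, 22.9 and 18.4 TPM against 1.22, 3.24 and 0.779 TPM, with 3450 of its 5024 exonic bases shared with Gm49368.

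Red cell genes were higher in the Hlf-low set. Of 28 genes, 21 were separated lower and 0 higher in the Hlf-high set, with a median difference of −2.37. Klf1, the red cell Krüppel-like factor, was at 23.1, 21.1 and 13.6 TPM against 155, 147 and 151 TPM. Tfrc, the transferrin receptor that imports iron, was at 76.7, 71.8 and 40.6 TPM against 302, 342 and 375 TPM. Among enzymes of haem synthesis, Fech was at 5.39, 5.65 and 10.1 TPM against 37.2, 68.7 and 56.2 TPM, and Cpox was at 68.1, 50.6 and 40.0 TPM against 268, 313 and 294 TPM. Of the membrane skeleton, Add2 was at 1.42, 0.926 and 0.541 TPM against 53.6, 54.4 and 78.5 TPM, and Sptb, beta-spectrin, was at 3.85, 2.31 and 2.996 TPM against 25.9, 28.4 and 30.1 TPM. Car1, a carbonic anhydrase, was at 1.45, 0.624 and 1.83 TPM against 26.1, 19.9 and 28.4 TPM.

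Several late red cell genes did not follow. Alas2, the erythroid first enzyme of haem synthesis, was at 6.66, 8.35 and 26.3 TPM against 5.32, 4.63 and 7.34 TPM. Slc4a1, the band 3 anion exchanger, was at 0.221, 0.738 and 19.1 TPM against 10.6, 5.83 and 4.35 TPM. Of the 7 globin genes 0 were separated, and the library labelled WT KL replicate 1 stood apart with a sum of 8447 TPM against 700 to 1326 TPM in the other 5. It was the 1 library with embryonic globins at high level, with Hbb-y at 1248 TPM and Hba-x at 65.6 TPM, against at most 0.494 and 0.170 TPM elsewhere. The same library held the highest Alas2 and Slc4a1, yet within its set it was lowest for 13 of the 21 separated erythroid genes, Gata1 and Klf1 among them. In the Hlf-low set WT KL replicate 3 was highest for 12 of these 21 and the library labelled WT HSC replicate 3 lowest for 17. The part of red cells or free globin RNA in these values was not tested.

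Of 15 megakaryocyte genes 4 were separated higher in the Hlf-high set and 0 lower, against 13.9% and 2.16% of all tested genes. Another 6 were not separated and 5 were under the filter, and the median difference over the 10 past it was 0.57. Selp, P-selectin, was at 24.1, 11.2 and 16.6 TPM against 0.214, 0.119 and 0.0182 TPM, and Pf4, platelet factor 4, was at 6.10, 2.80 and 17.6 TPM and listed at 0 in the Hlf-low set. Itga2b was not separated, at 5.87, 2.41 and 5.88 TPM against 4.13, 2.47 and 3.19 TPM. Of 14 mast cell, basophil and eosinophil genes, 12 were under the filter and the other 2 were separated lower. These 2 were under 1 TPM in every Hlf-high library, so the filter fixed their direction. Cpa3, mast cell carboxypeptidase, was at 0.633, 0.0900 and 0.815 TPM against 15.9, 12.9 and 8.49 TPM, and Hdc, the histamine-forming enzyme, was at 0.351, 0.344 and 0.144 TPM against 13.8, 39.6 and 4.12 TPM.

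Most markers of other fetal liver cells were under the filter, though some reached several TPM in single Hlf-high libraries. All 11 macrophage and all 12 hepatocyte genes were under the filter, and 1 of 12 stromal genes, Postn, was separated, at 3.56, 4.67 and 4.06 TPM against 0, 0.0409 and 0 TPM. The summed macrophage level was 2.39 to 9.20 TPM in the Hlf-high and 0.588 to 3.48 TPM in the Hlf-low set, and the hepatocyte sum was 3.33 to 26.4 TPM against 0.971 to 1.75 TPM. The highest hepatocyte sum belonged to the library labelled WT KL replicate 1, with Alb at 10.4 TPM and Afp at 6.86 TPM. The highest macrophage sum belonged to WT HSC replicate 2, with Mrc1 at 5.61 TPM.

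Cytosolic ribosomal protein genes stood at like levels in both sets. Of 90 genes 0 were separated, the median difference was −0.03, or 0.05 with median centring, and the sums were 29996 to 33808 TPM against 32261 to 35876 TPM. Mitochondrially encoded RNA was lower in the Hlf-high set, with a sum of 77355 to 83993 TPM against 104744 to 113896 TPM. Of 37 such genes 8 were separated lower, 7 of them tRNA genes and the other mt-Nd1, at 2303, 2011 and 2320 TPM against 4827, 5460 and 5305 TPM. TPM is a share of each library, and the effect of this difference on the values of other genes was not tested.

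**Figure D4:**
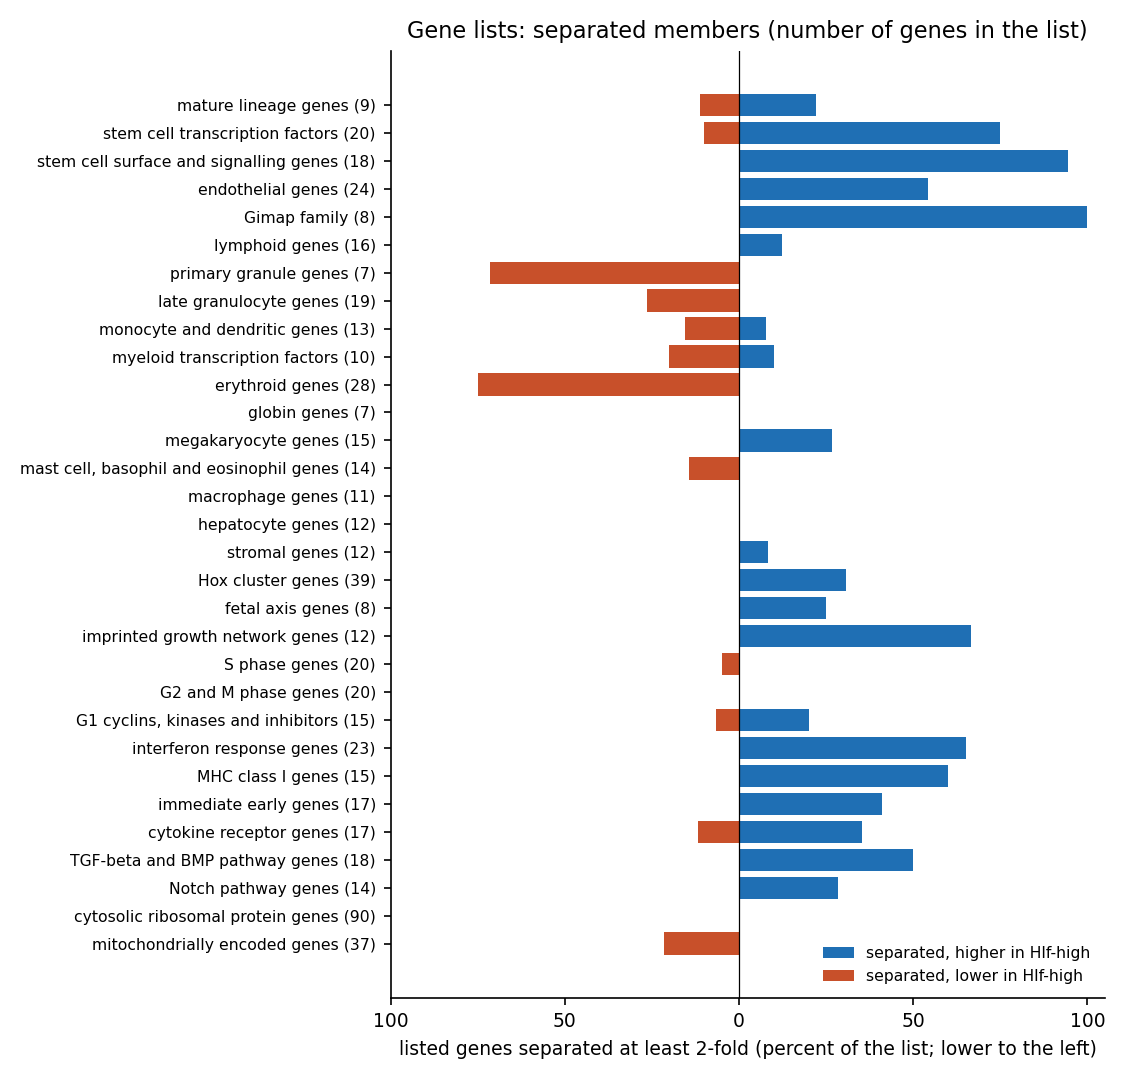
Percent of each gene list separated at least 2-fold between the Hlf sets, higher in the Hlf-high set to the right (blue) and lower to the left (orange), with the number of listed genes in brackets. The bars count all listed genes, those under the filter included, whereas the shares of 13.9% and 2.16% over the 18268 genes count only those past it. Stem cell, Gimap, imprinted, interferon and MHC class I lists extend to the right, and primary granule and erythroid lists to the left.

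Departures of single libraries within the sets were counted. A gene was counted as departing in a library when it was at least 4-fold above or below both other libraries of its set on the TPM + 1 scale while those lay within 2-fold of each other. In the Hlf-high set 39 genes departed in WT HSC replicate 1, 31 in WT HSC replicate 2 and 28 in the library labelled WT KL replicate 1. In the Hlf-low set 32 departed in the library labelled WT HSC replicate 3, 30 in WT KL replicate 2 and 31 in WT KL replicate 3. With departures of at least 8-fold the counts were 6, 3 and 4 in the Hlf-high and 8, 5 and 5 in the Hlf-low set, so the library labelled WT HSC replicate 3 had the most in its set at both thresholds and the library labelled WT KL replicate 1 did not. The differences between these counts were not tested. At 4-fold, 789 genes were separated higher and 74 lower between the sets.

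In the Hlf-high set Cpq, a peptidase gene, was at 2.78, 3.09 and 44.4 TPM, high in the third library listed. In the Hlf-low set Dtd1, a tRNA proofreading enzyme, was at 1.77, 29.96 and 32.6 TPM and Exoc4, an exocyst subunit, at 1.84, 28.4 and 31.2 TPM, both low in the first library listed. Elovl5, a fatty acid elongase, was at 5.58 TPM in WT HSC replicate 2 against 47.5 and 50.3 TPM. Blvrb, a biliverdin reductase of red cells, was at 206 TPM in WT KL replicate 2 against 32.4 and 30.2 TPM. Some genes took 2 levels across the sets, as Tbca, a tubulin cofactor, did at 7.14, 6.20 and 56.5 TPM in the Hlf-high and 65.4, 66.3 and 4.18 TPM in the Hlf-low set. Xist departed in WT HSC replicate 1 and WT KL replicate 2, the 2 libraries of male type.

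**Figure D5:**
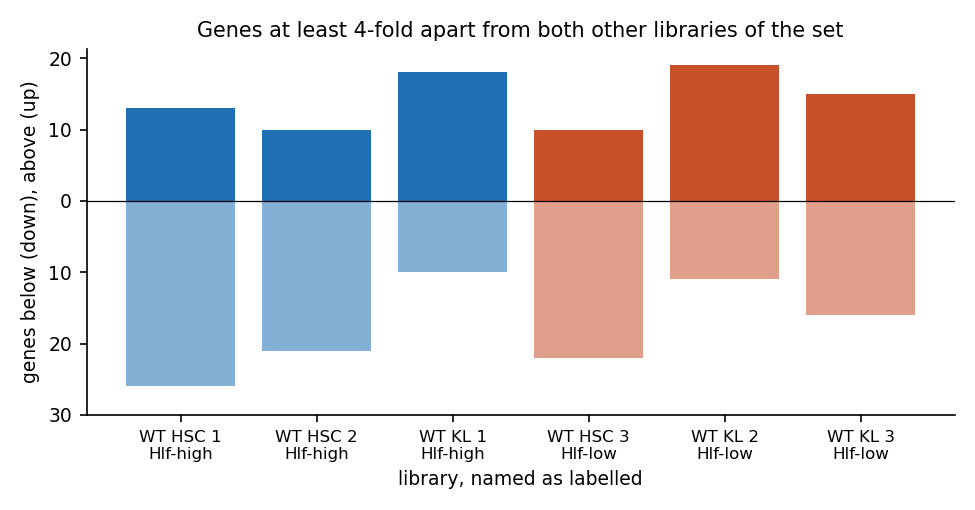
Number of genes in each library that lie at least 4-fold above (upward bars) or below (downward, paler bars) both other libraries of the same Hlf set. Totals run from 28 to 39 genes per library, with the library labelled WT KL replicate 1 at 28 and the library labelled WT HSC replicate 3 at 32.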

How the data were processed

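RNA sequencing of 6 WT libraries was used, 3 labelled WT HSC and 3 labelled WT KL, with 1 file per library. The authors deposited TPM per gene, per the file headers. For WT HSC replicate 2 the values stood under the heading C_H3 and were read as TPM. The submitters' processing notes name HISAT2, StringTie and the build mm10. Not given in the sources used here are versions, annotation and strand use. Read depth is unknown, and a 0 means no more than no detection at that depth.

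Values were analysed as log2(TPM + 1), over the 18268 of 55488 listed genes that reached 1 TPM in 3 or more of the 6 libraries. Label contrasts used limma 3.58.1 in R 4.3.3 with a trend and Benjamini-Hochberg adjustment over all genes (call at adjusted p under 0.05), with and without the Hlf set as a term. The Hlf contrast was not tested. Differences are Hlf-high minus Hlf-low set medians. Members, lists and tests were chosen with earlier results of these data known.

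Named genes were the markers and gate genes, the 12 with the largest gap in each direction at a median of 10 TPM or more, up to 4 members per list by difference with any that opposed their list, called genes and up to 3 departing genes per library and direction. Predicted, clone-named, RIKEN and pseudogene symbols were left out of the largest gaps and the departures. Other genes, those not separated and the related pairs included, were chosen after their values were seen. Some members of the lists are counted but not reported by name here. Coordinates and shared exonic bases are from GENCODE M21 on GRCm38, counted without regard to strand.

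The fits were tested on simulated data with the same 18268 genes. The fit by label recovered 0 of 100 genes changed 2-fold and 22 of 100 changed 4-fold. With the Hlf set as a term it recovered 75 and 96 of 100, with 8 false calls. Alternatives were other pseudocounts, filters, scalings and separations, a replicate block, no trend, all 9 libraries and leaving out each library.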

Additional observations from a re-analysis of the deposited data

How the results depend on the processing

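Of 122 genes followed through the settings run, 100 were separated, and 0 of these changed direction between the Hlf sets. A separated gene cannot change direction when a library is left out or the pseudocount, filter or fold threshold is changed. Only centring and rescaling could have reversed one, so the definition of separation largely fixed this result. The difference moved by more than 1 SD between libraries for 69 of the 122 with a pseudocount of 0.1, for 55 with rescaling and for 4 with median centring. With separation of at least 4-fold, 789 genes were higher and 74 lower in the Hlf-high set, and by any amount 7580 and 3863. A filter of 5 TPM gave 1494 and 336, a pseudocount of 0.1 gave 3345 and 512, median centring 2777 and 349, and rescaling without the 50 most abundant genes 3086 and 487. Leaving out 1 library gave 2716 to 2929 higher and 425 to 554 lower. The filter was kept and the rule then spans fewer libraries, so these counts could not fall below those of all 6 libraries. Departures of at least 8-fold numbered 6 in WT HSC replicate 1, 3 in WT HSC replicate 2, 4 in the library labelled WT KL replicate 1, 8 for the library labelled WT HSC replicate 3, with 5 each in WT KL replicates 2 and 3.

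The label fits rested on few calls. The fit as labelled called 0 genes with no filter, with a filter of 5 TPM and without any 1 library (0 to 0). In 5 other settings it called 1 gene. Without the 2 libraries against their labels the count was 6910. Those 2 were left out on measured values, so that count is a description of the libraries that remain and no test of the labels. With the Hlf set as a term, 0 genes were called with no filter, 0 to 1 without 1 library (1 without WT HSC replicate 2), and 2 in the other settings but the block. With the replicate number as a block, both limma fits called 0 genes, with 298 and 841 at an unadjusted p under 0.05. Deviations of same-numbered libraries from their label means correlated at 0.66 for replicate 1, −0.65 for replicate 2 and 0.72 for replicate 3. These deviations carry the Hlf sets, which the libraries of replicates 1 and 3 share and those of replicate 2 do not, so they cannot show pairing. The libraries of replicate 1 and those of replicate 2 differed in sex, so the numbers were not taken as pairs.

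Depth is unknown, each set holds 3 libraries of 100 cells, and values near 0 TPM cannot be ranked. The cause of the lost label calls was not tested.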
